A study of Rattus norvegicus with 10 samples.

Results

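The complement system and the coagulation cascade were followed here through 34 listed genes in chemically induced rat mammary tumours. Of these, 22 belonged to complement and 12 to coagulation. A gene was read through the probe sets annotated to it alone, and where it had several, through the one with the highest mean log2 signal over all 10 arrays. By this rule 28 of the 34 genes were read, 17 of complement and 11 of coagulation, out of 14217 genes read in the same way on the array. C2 and Cfb were covered only by 4 probe sets that name both genes, C4a and C4b by 1 probe set that names both, and C7 by 2 probe sets that also name Tubb4b. F7 was not analysed here because no probe set was listed for it. Of the 28 genes, 24 had a signal above the limit used for testing, and C5, C6, Cd46 and F10 lay under it.

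The tumours had been induced in female Sprague-Dawley rats by 1 oral dose of 100 mg/kg 7,12-dimethylbenz(a)anthracene (DMBA), a polycyclic hydrocarbon that causes mammary carcinomas in this strain. Both a biopsy and a later sample were taken from every one of 5 tumours (31D3, 32D1, 37I1, 50I1, 52I4). The biopsy was a trucut core of 0.7 cm by 2.5 mm, cut from a tumour of 2 cm3 in animals 12 weeks old, and the total tumour came from animals 19 weeks old. All 10 samples carried the same carcinogen exposure and were labelled as having no further treatment, so no untreated mammary gland stood beside them. The labels call the later sample a total tumour, whereas the text that describes the design calls it a final trucut sample. The tumours had been chosen by histology (Bloom-Richardson grade II). Whether 1 rat carried several of the tumours is not stated, so p-values cover the spread among the 5 tumours only. Array numbers run consecutively within a group, and array batch, age, way of sampling and group cannot be told apart.

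Complement is a set of plasma and tissue proteins that mark and lyse cells and draw in leukocytes. The C1r and C1s proteases start the classical pathway, MASP proteases start the lectin pathway, and all routes meet at the cleavage of C3. Membrane and fluid-phase regulators limit that cleavage on host cells. Coagulation starts when tissue factor (F3) binds factor VII, runs through factor X and its cofactor factor V to thrombin, and ends in fibrin cross-linked by factor XIII. Tissue factor pathway inhibitors and the protein C system, with thrombomodulin, the endothelial protein C receptor and protein S, hold it back. The liver makes most of the plasma pool of both systems, while fibroblasts, macrophages, endothelium and epithelium make many of the components locally.

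Values are log2 signals after robust multichip averaging (RMA), so a difference of 1 is a doubling, and levels are not set against each other between genes because each probe set has its own brightness. The array medians lay between 5.995 and 6.118, and the correlations between arrays over all probe sets lay between 0.9518 and 0.9888. The biopsy of 37I1 stood apart. It had the lowest mean of the 11 fibroblast markers (7.64, other biopsies 9.71 to 11.11), of the 11 macrophage markers (8.44, other biopsies 9.71 to 10.52) and of the 11 T and NK cell markers (4.93, other biopsies 6.66 to 7.22). Its skeletal muscle actin Acta1 was at 11.93, against 4.18 to 8.13 in the other biopsies, but the mean of the 8 skeletal muscle markers was 5.24 there and higher in the biopsy of 50I1, at 5.66. The 12 mammary epithelial markers were read in every sample, with means of 10.65 to 11.48 in biopsies and 10.68 to 11.68 in total tumours. Of 9 hepatocyte markers read, 7 lay under the limit, and their mean was 4.36 to 5.13 in biopsies and 4.55 to 5.00 in total tumours. Albumin (Alb) was 3.78 to 4.24 in biopsies and 4.06 to 5.61 in total tumours, the last in 50I1.

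The first question was whether the genes differed between the biopsy and the total tumour. In the mean over the 28 genes, the biopsies read 7.65 in 31D3, 8.06 in 32D1, 6.74 in 37I1, 8.35 in 50I1 and 7.60 in 52I4. The total tumours read 8.79, 7.88, 8.06, 7.49 and 7.76 in the same order. The groups overlapped: the lowest sample was the biopsy of 37I1, the highest the total tumour of 31D3, and the total tumour of 50I1 lay below 4 of the 5 biopsies. The change from biopsy to total tumour was 1.14 in 31D3, −0.18 in 32D1, 1.32 in 37I1, −0.86 in 50I1 and 0.16 in 52I4. Its mean was 0.32 (SE 0.409, 5 pairs), smaller than its error. That mean was 0.07 without 37I1, 0.11 without 31D3 and 0.61 without 50I1, so each of these tumours moved it by more than 1.5 times. In bulk samples such as these, fewer cells of a type and less RNA per cell cannot be told apart.

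**Figure D1:**
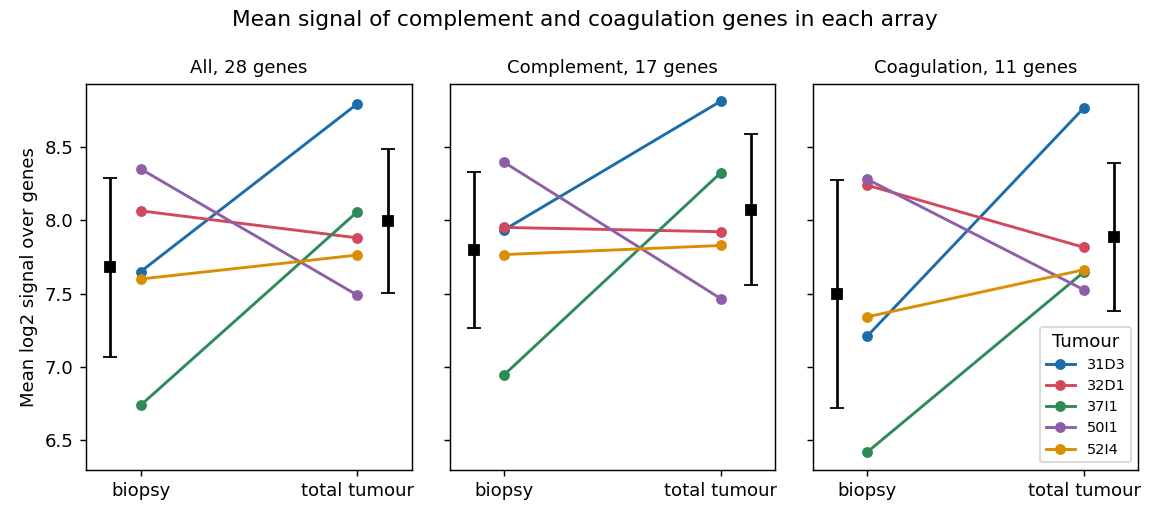
Mean log2 signal of the 28 genes, of the 17 complement genes and of the 11 coagulation genes (vertical axis) in the biopsy and the total tumour of each of the 5 tumours, with a line joining the 2 samples of a tumour. Squares and bars are the mean and SD of each group (n = 5). The lines of 31D3 and 37I1 go up, that of 50I1 goes down, and those of 32D1 and 52I4 change less than these in every panel.

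The limma fit with tumour as block tested 18625 probe sets, and 0% of them differed between total tumour and biopsy at an adjusted p (Benjamini-Hochberg) under 0.05. The count among the 24 tested genes was 0 as well. In limma, 1133 probe sets had an unadjusted p under 0.05, the methods' paired t-test gave 1013, and neither gave a call after adjustment. Among the 24 genes the lowest limma adjusted p was 0.69 and the highest 0.99. At an unadjusted p under 0.05 in limma, 1 of the 24 was higher in total tumours, Cfi, beside 1.61% of all 10793 genes tested, and 0 were lower, beside 2.56%. The signal averaged higher in total tumours for 23 of the 28 genes, beside 57.0% of all 14217 genes, and the median of the mean change was 0.31 for the 28 genes and 0.03 for all genes. No gene of the 28 moved the same way in 5 of 5 tumours, beside 6.45% of all genes, and for none did the 2 groups fail to overlap, beside 0.584%.

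The change from biopsy to total tumour varied from tumour to tumour. In 31D3, 24 of the 28 genes were higher in the total tumour, beside 53.8% of all genes. In 32D1 the count was 12 (all genes 52.7%), in 37I1 23 (46.4%), in 50I1 3 (54.2%) and in 52I4 19 (55.6%). The median change of the 28 genes was 1.31 in 31D3, −0.12 in 32D1, 1.29 in 37I1, −0.90 in 50I1 and 0.27 in 52I4. Over all genes these medians lay between −0.03 and 0.04. The pattern of a higher total tumour in 31D3 and 37I1 and a lower one in 50I1 was held by 20 of the 28 genes, beside 17.0% of all genes. That pattern was picked after the values were seen, and genes measured in the same samples share whatever differs between those samples.

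The same 3 tumours set the extremes. The biopsy of 37I1 was the lowest biopsy for 19 of the 28 genes, beside 20.0% of all genes, and the total tumour of 31D3 was the highest total tumour for 20, beside 20.1%. The biopsy of 50I1 was the highest biopsy for 15, beside 14.6%. A range of more than 2 log2 units over the 10 arrays was found for 16 of the 28, beside 9.88% of all genes. In 37I1 alone, 16 genes changed by more than 1 log2 unit, beside 6.32% of all genes, counted in either direction. All 16 were higher in the total tumour.

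**Figure D2:**
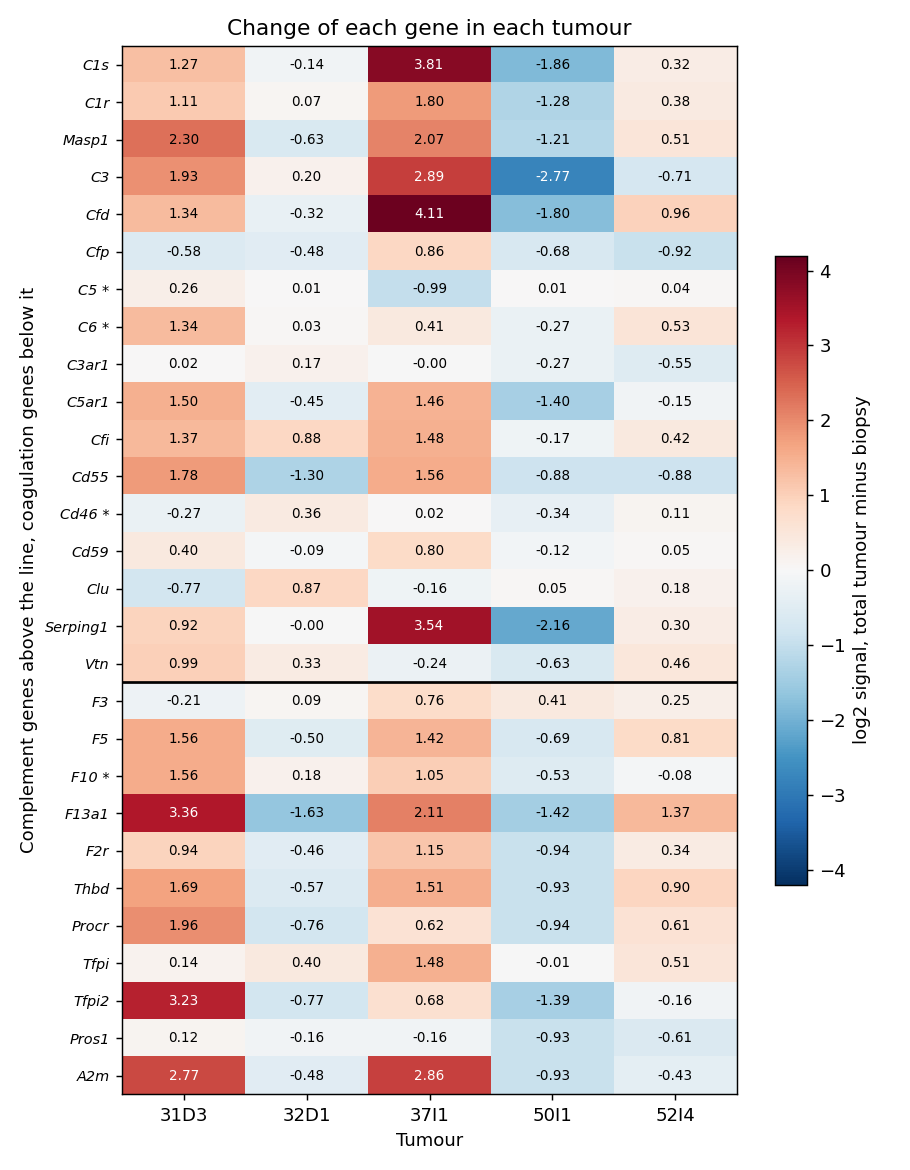
Change of each of the 28 genes (rows, ordered by role) from biopsy to total tumour in each of the 5 tumours (columns) as a colour on a log2 scale, with the value printed in each cell. An asterisk marks the genes under the limit for testing. The columns of 31D3 and 37I1 are mostly positive and that of 50I1 is mostly negative, with the highest value 4.11 for Cfd in 37I1.

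Complement and coagulation genes were then set beside each other. The mean of the 17 complement genes changed by 0.88 in 31D3, −0.03 in 32D1, 1.38 in 37I1, −0.93 in 50I1 and 0.06 in 52I4, with a mean of 0.27 (SE 0.398, 5 pairs). The mean of the 11 coagulation genes changed by 1.55, −0.42, 1.23, −0.75 and 0.32 in the same order, with a mean of 0.39 (SE 0.449). The signs matched in every tumour. Complement minus coagulation change was −0.68 in 31D3, 0.39 in 32D1, 0.15 in 37I1, −0.18 in 50I1 and −0.26 in 52I4. Its mean was −0.11 (SE 0.183), positive in 2 of 5 tumours and within the spread between tumours. Without 31D3 that mean was 0.03, and without 37I1 the complement mean change was −0.0049, so both depend on 1 tumour for their sign. The coagulation mean change stayed above 0, between 0.09 without 31D3 and 0.67 without 50I1.

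The means of some marker lists moved in the same tumours as the 28 genes, and those of others did not. The mean of the fibroblast markers (11 of 11 read) changed by 0.85 in 31D3, −0.35 in 32D1, 2.33 in 37I1, −1.39 in 50I1 and 1.35 in 52I4. It ranged from 7.64 to 11.11 in biopsies and from 9.71 to 11.06 in total tumours. The macrophage mean (11 of 12 markers read) changed by 0.69, −0.33, 1.75, −1.55 and −0.50 in that order, and ranged from 8.44 to 10.52 in biopsies and from 8.98 to 10.71 in total tumours. The fibroblast and endothelial means had the sign of the 28 genes in all 5 tumours. The macrophage and T and NK cell means had it in all but 52I4. The T and NK cell mean (11 of 11 read) changed by 2.23, −0.16, 1.88, −1.35 and −0.69, over 4.93 to 7.22 in biopsies and 5.87 to 9.09 in total tumours. The endothelial mean (9 of 10 read) changed by 0.85, −0.56, 0.71, −0.91 and 0.83, over 6.88 to 7.80 in biopsies and 6.89 to 8.14 in total tumours. The epithelial mean (12 of 12 read) changed by 0.03, −0.71, 0.05, 0.76 and 0.42. The smooth muscle and myoepithelial mean changed by −0.65, −0.16, −0.89, 0.20 and −0.39. The mast cell mean was lower in the total tumour of all 5 tumours, by −0.59, −0.27, −1.29, −1.28 and −1.29. No marker of the fibroblast, macrophage, T and NK cell, endothelial or epithelial lists lay under the limit, and the part of these cells in the values of the 28 genes was not tested.

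**Figure D3:**
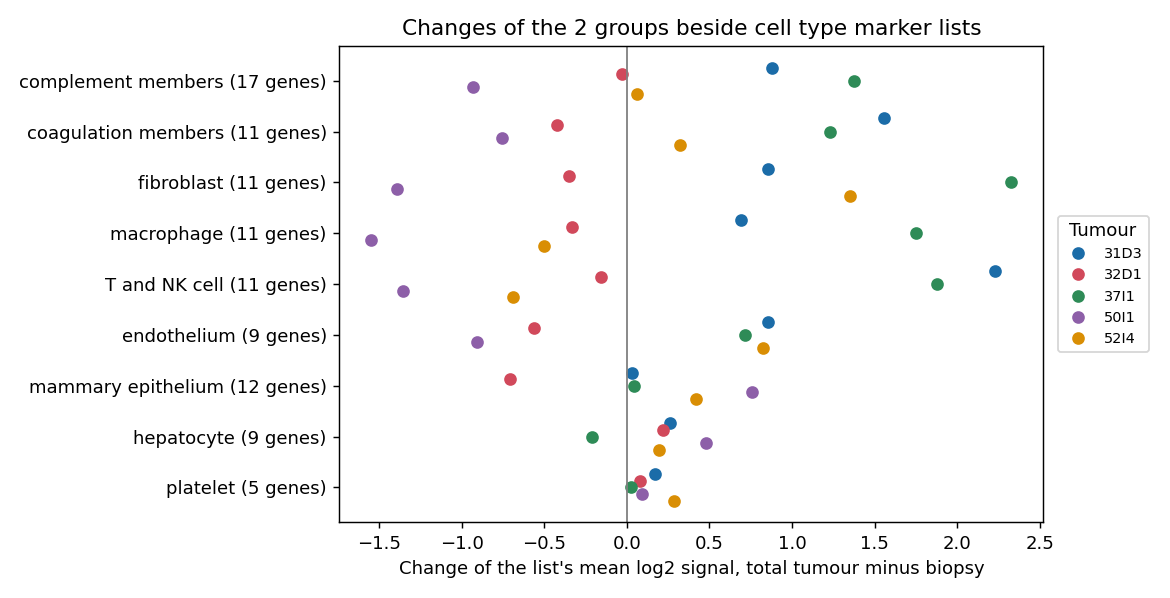
Change from biopsy to total tumour (log2, horizontal axis) of the mean of the complement genes, the coagulation genes and 7 marker lists (rows), with 1 point per tumour. For 31D3 and 37I1 the points of both gene groups and of the fibroblast, macrophage, T and NK cell and endothelial lists are above 0, and for 50I1 they are below 0.

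The proteases that start the classical and lectin pathways came first. C1s, the C1 protease that cleaves C4 and C2, read 11.23, 11.08, 7.34, 11.51 and 10.998 in the biopsies of 31D3, 32D1, 37I1, 50I1 and 52I4. Its total tumours read 12.50, 10.94, 11.15, 9.65 and 11.32 in the same order. The biopsy of 37I1 was far below every other sample, and the total tumour of 50I1 was the next lowest. The difference, total tumour minus biopsy, was 0.68 (SE 0.738, limma adjusted p 0.918), and without 37I1 it was −0.10.

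C1r, the partner protease that activates C1s, read 10.80, 10.83, 9.20, 11.24 and 10.54 in the biopsies and 11.91, 10.89, 11.003, 9.96 and 10.91 in the total tumours. Its 2 lowest samples and its highest were those of C1s, with a difference of 0.42 (SE 0.417, limma adjusted p 0.911). Masp1, a protease of the lectin pathway, changed by 2.30 in 31D3, −0.63 in 32D1, 2.07 in 37I1, −1.21 in 50I1 and 0.51 in 52I4. Its difference was 0.61 (SE 0.559). C4, a substrate of C1s, could be read only through the probe set shared by C4a and C4b. That probe set gave 10.19, 10.34, 11.03, 11.53 and 10.47 in biopsies and 10.52, 9.24, 12.97, 11.82 and 11.11 in total tumours. The biopsy of 37I1 was not low there, and 50I1 was not lower in the total tumour, which sets it apart in direction from C1s and C1r in 50I1. The change in 50I1 was 0.29, against −1.86 for C1s.

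C3, the component on which all routes meet, read 9.82, 10.34, 8.09, 11.29 and 9.30 in the biopsies of 31D3, 32D1, 37I1, 50I1 and 52I4. It read 11.75, 10.53, 10.98, 8.52 and 8.59 in the total tumours. The order of the tumours was not kept: 50I1 had the highest biopsy and the lowest total tumour, whereas 52I4 held the same rank in both groups. The difference of 0.31 (SE 0.788, limma adjusted p 0.968) was small beside the SD of 1.19 among biopsies and 1.46 among total tumours (n = 5 each). It was −0.34 without 37I1 and 1.08 without 50I1.

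Cfd, factor D, the protease that cleaves factor B in the alternative pathway, had the largest mean difference of the 24 tested genes. Its biopsies read 8.61, 8.07, 5.74, 9.49 and 8.02, and its total tumours 9.95, 7.75, 9.85, 7.68 and 8.98. The change in 37I1 alone was 4.11. The difference was 0.86 (SE 0.777, limma adjusted p 0.896), and 0.05 without 37I1. Cfd is also known as the adipocyte product adipsin. Of the 8 adipocyte markers, 4 lay under the limit, adiponectin (Adipoq) among them. Adipoq ranged over 3.68 to 3.92 among biopsies and 3.90 to 5.48 among total tumours, highest in 37I1 and 52I4. The mean of the 8 markers changed by −0.18 in 31D3, 0.12 in 32D1, 1.28 in 37I1, −0.16 in 50I1 and 1.09 in 52I4. Its sign was opposite to that of Cfd in 31D3 and 32D1 and the same in the other tumours. The part of fat cells in the Cfd values was not tested.

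Cfp, properdin, which stabilises the alternative pathway convertase, had the largest difference in the other direction. It read 7.49, 6.76, 6.13, 7.48 and 7.19 in biopsies and 6.90, 6.27, 6.98, 6.80 and 6.26 in total tumours. It was lower in the total tumour of 4 tumours and higher in that of 37I1, with a difference of −0.36 (SE 0.259, limma adjusted p 0.873). The 4 probe sets shared by Cfb and C2, factor B and the classical pathway component, could not be given to either gene. The brightest of them changed by 0.36, −0.10, 1.21, −0.44 and −0.09. Another changed by −0.69, 0.11, 1.54, 1.05 and 0.07, with the same sign as the brightest only in 37I1. The remaining ones had the sign of the brightest in 31D3, 37I1, 50I1 and 52I4, and in 32D1 they went opposite ways (−0.17 and 0.11).

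The terminal components, which build the lytic pore, gave little signal. C5 read 3.23, 3.26, 4.27, 3.21 and 3.04 in biopsies and 3.49, 3.28, 3.27, 3.22 and 3.08 in total tumours, under the limit of 5.15 on every array. The 1 value apart was the biopsy of 37I1, and the difference of −0.13 had no test. C6 lay over the limit only in the total tumour of 31D3, at 5.76, and its mean difference was 0.41. The brighter of the 2 probe sets shared by C7 and the tubulin gene Tubb4b changed by 1.91, −1.62, 4.26, −2.93 and 0.06. That signal cannot be split between the genes.

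The anaphylatoxin receptors sit on leukocytes and bind the small fragments of C3 and C5. C5ar1 read 7.46, 8.32, 6.13, 8.32 and 7.13 in biopsies and 8.96, 7.88, 7.59, 6.93 and 6.98 in total tumours. The difference was 0.19 (SE 0.451), and it was −0.13 without 31D3 and 0.59 without 50I1. C3ar1 lay near the limit, with 5.10 to 5.66 in biopsies and 5.01 to 5.83 in total tumours, and differed by −0.13 (SE 0.129).

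Among the regulators, Cfi stood out from the rest. Cfi is factor I, the protease that cuts C3b and C4b once a cofactor holds them. It read 9.28, 8.79, 9.47, 11.06 and 9.36 in the biopsies of 31D3, 32D1, 37I1, 50I1 and 52I4, and 10.65, 9.67, 10.96, 10.89 and 9.78 in the total tumours. The total tumour was higher in 4 of 5 tumours and lower by 0.17 in 50I1, whose biopsy was already the highest sample. The biopsy of 37I1 was not low for this gene. The difference was 0.80 (SE 0.254), a 1.74-fold higher signal, with a limma unadjusted p of 0.0184 and an adjusted p of 0.693. The unadjusted p was 0.0888 without the tumour block and 0.0603 in the methods' paired t-test, and the adjusted call was not reached under any setting.

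Serping1, the C1 inhibitor, which also inhibits plasma kallikrein and factor XIIa, read 11.12, 10.71, 7.81, 11.30 and 10.50 in biopsies. It read 12.04, 10.71, 11.35, 9.14 and 10.80 in total tumours. As for C1s, the biopsy of 37I1 was lowest, the total tumour of 50I1 next and the total tumour of 31D3 highest. The difference was 0.52 (SE 0.725), and −0.24 without 37I1. C1s, C1r and Serping1 thus moved by 3.81, 1.80 and 3.54 in 37I1 and by −1.86, −1.28 and −2.16 in 50I1.

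Clu, clusterin, which blocks assembly of the lytic pore, did not share those extremes. It read 12.47, 11.62, 13.06, 12.22 and 11.70 in biopsies and 11.69, 12.49, 12.89, 12.27 and 11.87 in total tumours. The biopsy of 37I1 was its highest sample, and the difference was 0.03 (SE 0.224). Cd55, the decay-accelerating factor, read 4.55 to 7.34 in biopsies and 5.21 to 7.26 in total tumours and differed by 0.05 (SE 0.529). With the mean of its probe sets in place of the brightest the difference was −0.02. Cd59, the membrane inhibitor of the pore, is listed now as Cd59b and was matched by synonym. It read 10.41 to 10.82 in biopsies and 10.29 to 11.31 in total tumours, with a difference of 0.21 (SE 0.159). Vtn, vitronectin, which binds the terminal complex, differed by 0.18 (SE 0.236) around means of 6.20 in biopsies and 6.38 in total tumours. Cd46, a cofactor for factor I, was under the limit on all 10 arrays, at 4.03 to 4.75 in biopsies and 4.05 to 4.78 in total tumours, with a mean difference of −0.02.

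**Figure D4:**
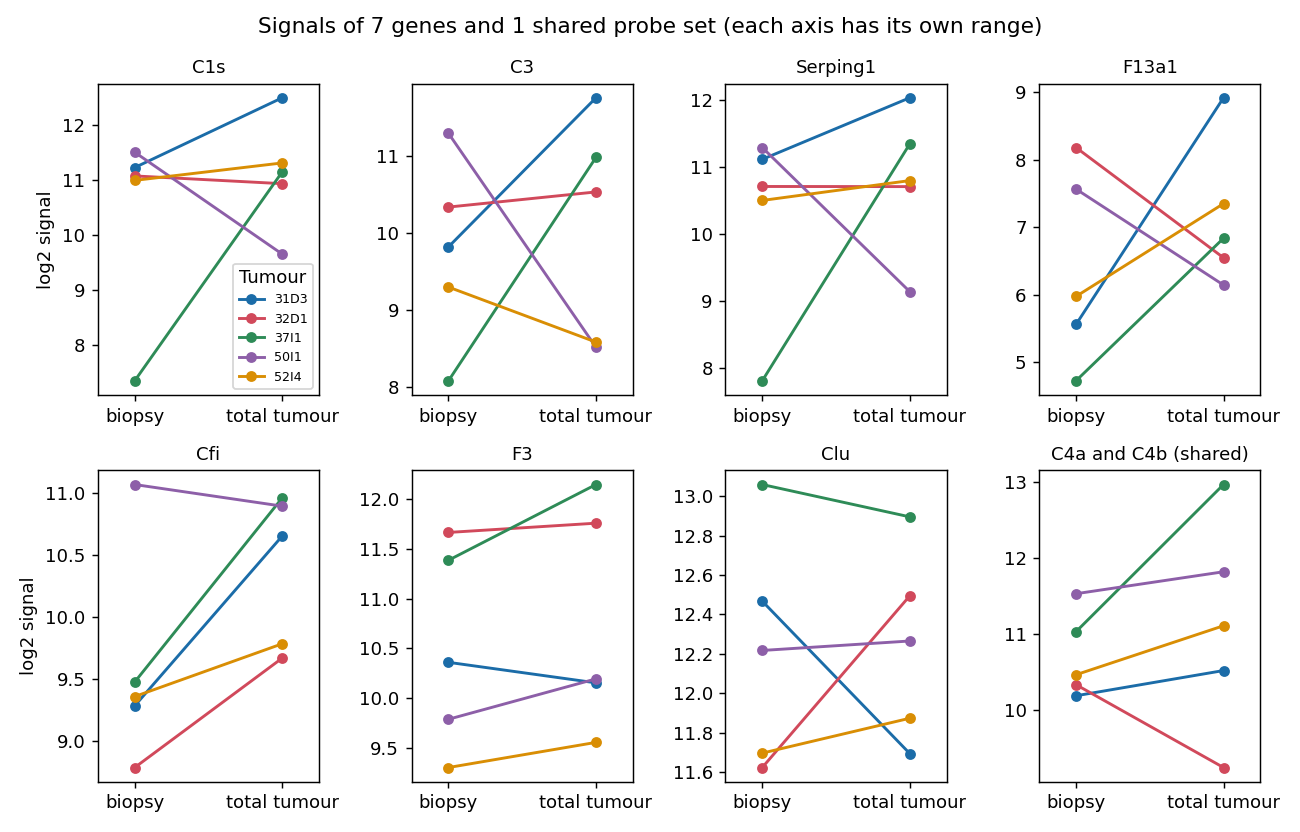
Log2 signal (vertical axis) in the biopsy and the total tumour of each of the 5 tumours, with the samples of a tumour joined by a line, for C1s, C3, Serping1, F13a1, Cfi, F3 and Clu and for the probe set shared by C4a and C4b. Each panel has its own axis range. C1s and Serping1 share the low biopsy of 37I1 (7.34 and 7.81), Cfi goes up in 4 tumours, and F3 stays highest in 32D1 and 37I1.

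F3, tissue factor, is the initiator of coagulation. The largest change within a tumour was 0.76, in 37I1, whereas the 10 samples spanned 2.84. F3 read 10.36, 11.66, 11.39, 9.79 and 9.30 in the biopsies of 31D3, 32D1, 37I1, 50I1 and 52I4. It read 10.15, 11.76, 12.15, 10.20 and 9.56 in the total tumours. In both groups 32D1 and 37I1 were the highest and 52I4 the lowest. The difference between total tumour and biopsy was 0.26 (SE 0.15, limma adjusted p 0.846). The test of the difference between tumours, limma's moderated F with sampling moment as covariate, gave F3 an unadjusted p of 0.000117 and an adjusted p of 0.0908. That was the lowest among the 24 genes and did not pass 0.05.

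Across the array 16 probe sets, 0.0859%, passed that between-tumour test at an adjusted p under 0.05, and none of them belonged to the 24 genes. With any 1 tumour left out the count was 0 or 1. In limma at an unadjusted p under 0.05 the test took 2 of the 24, Cfi and F3, beside 10.1% of all genes tested. For Cfi the limma unadjusted p between tumours was 0.0288 and the adjusted p 0.423. For C1s, C3 and Serping1 the limma adjusted p values between tumours were 0.688, 0.822 and 0.79.

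F5, factor V, the cofactor of factor Xa, read 6.99, 7.83, 5.52, 8.85 and 7.64 in biopsies and 8.55, 7.33, 6.95, 8.16 and 8.46 in total tumours. It was lowest in 37I1 in both groups, differed by 0.52 (SE 0.381) between the groups and had a limma unadjusted p between tumours of 0.0584. F10, factor X, had a mean of 5.14, just under the limit, and was not tested. Its samples read 4.87, 5.03, 4.45, 5.43 and 4.84 in biopsies and 6.43, 5.21, 5.50, 4.90 and 4.77 in total tumours, a mean difference of 0.44.

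F13a1, the A chain of the fibrin-linking factor XIII, which macrophages and platelets carry, read 5.56, 8.18, 4.73, 7.57 and 5.98 in biopsies. It read 8.92, 6.55, 6.84, 6.15 and 7.35 in total tumours. The change was 3.36 in 31D3 and −1.63 in 32D1, and the order of these tumours was swapped between the groups. Its difference was 0.76 (SE 0.78, limma adjusted p 0.911). Of the 5 platelet markers read, 4 lay under the limit, and the list mean was 5.25 to 5.55 in biopsies and 5.51 to 5.73 in total tumours. F2r, the thrombin receptor PAR1, read 10.50, 11.16, 8.97, 11.28 and 10.38 in biopsies and 11.44, 10.70, 10.12, 10.34 and 10.73 in total tumours. Its lowest biopsy was again 37I1, and it differed by 0.21 (SE 0.325).

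Of the 6 inhibitors and protein C pathway genes, 5 were higher in the total tumour of 31D3 and 37I1 and lower in that of 50I1, and Pros1 was not among them. Thbd, thrombomodulin, which turns thrombin towards protein C, read 4.87, 5.59, 4.31, 5.77 and 4.96 in biopsies and 6.56, 5.02, 5.82, 4.84 and 5.86 in total tumours. It was above the limit in 5 of 10 arrays, 2 biopsies and 3 total tumours, and differed by 0.52 (SE 0.43). Procr, the endothelial protein C receptor, changed by 1.96, −0.76, 0.62, −0.94 and 0.61, with a difference of 0.30 (SE 0.424). Vwf, the von Willebrand factor of endothelium, read from the list of further coagulation genes, differed by 0.06 (SE 0.243).

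Tfpi2, an inhibitor of the tissue factor complex found in extracellular matrix, read 4.72, 7.05, 4.28, 6.82 and 5.47 in biopsies and 7.95, 6.28, 4.97, 5.43 and 5.31 in total tumours. Its 31D3 samples were 3.23 apart, and it was lower in the total tumour of 3 of the 5 tumours although its difference was 0.32 (SE 0.638). Tfpi, the main inhibitor of factor Xa and the tissue factor complex, read 8.82, 8.62, 7.26, 9.07 and 8.50 in biopsies and 8.95, 9.02, 8.74, 9.06 and 9.01 in total tumours. The total tumours lay close together (SD 0.126, n = 5). The biopsies had an SD of 0.701 (n = 5), with 37I1 at 7.26 and the others at 8.50 to 9.07. The difference was 0.50 (SE 0.221), with a limma unadjusted p of 0.0604 and an adjusted p of 0.838. Without 37I1 the difference was 0.26.

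Pros1, protein S, the cofactor of activated protein C, was the exception among these genes. It read 9.35, 9.36, 9.30, 10.30 and 10.04 in biopsies and 9.47, 9.20, 9.14, 9.38 and 9.43 in total tumours. It was lower in the total tumour of 4 of the 5 tumours. The difference over all 5 was −0.35 (SE 0.166) and had a limma unadjusted p of 0.0788 and an adjusted p of 0.846. A2m, the broad protease inhibitor alpha-2-macroglobulin, had the widest range of the 28 genes, 5.63. Its biopsies read 7.17, 8.36, 4.31, 8.74 and 7.21 and its total tumours 9.93, 7.88, 7.17, 7.80 and 6.79. It was 2.77 higher in 31D3 and 2.86 higher in 37I1 and lower in the other 3, and the difference was 0.76 (SE 0.67, limma adjusted p 0.894).

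Promoters were read from RefSeq (GRCr8) for every listed gene that had one there, as windows of 300 bases, 250 before and 50 after the start. Windows were listed for 23 of the 34 genes, 24 in all. Both strands were searched for 7 motifs. The AP-1 site was searched as TGANTCA. The C/EBP core was searched as TTGCNNAA and the NF-kB core as GGNNTTTCC. The GAS element of STAT factors was searched as TTCNNNGAA, and the interferon-response (ISRE) core as GAAANNGAA. The E-box was searched as CACGTG. The TATA box was searched as TATAAA. No matches overlapped in the 24 windows. The AP-1 letters stood in 7 windows (29.2%), those of C3ar1, Cd46, Cfp, F2r, F5, Procr and Tfpi2, beside 7.33% of all 33469 windows. The NF-kB letters stood in 5 (20.8%, all windows 6.05%) and the C/EBP letters in 4 (16.7%, all windows 10.6%). The shares of the other motifs were 12.5% against 6.42% for the E-box, 8.33% against 9.71% for the ISRE core, 8.33% against 8.87% for the GAS element and 4.17% against 14.2% for the TATA box. These counts are small, a match is not a bound site, and no binding was measured here.

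Of the windows with the AP-1 letters, the 4 of coagulation genes are shown, chosen after the values were seen. They were picked because all 4 genes were higher in the total tumour of 31D3 and 37I1 and lower in that of 50I1. C3ar1, Cd46 and Cfp, which also had the AP-1 letters, did not hold that pattern. Cfp and Cd46 were lower in the total tumour of 31D3 (−0.58 and −0.27), and C3ar1 was level in 37I1 (−0.00025). The windows of C1r and C3 are shown beside these 4 as examples of the C/EBP letters, also held by C6 and F13a1. C1r, C3, C6 and F13a1 all held that pattern, but so did 20 of the 28 genes, and a link between letters and pattern was not tested. The windows are written 5′ to 3′ along the gene's strand, with the matches to these motifs in capitals. F2r lies on the minus strand at chr2:28620530-28620829, F5 on the plus strand at chr13:79046407-79046706, Procr on the plus strand at chr3:164714477-164714776 and Tfpi2 on the minus strand at chr4:32941227-32941526. C1r lies on the plus strand at chr4:159098763-159099062 and C3 on the minus strand at chr9:2201290-2201589. Counted from the start of the gene as 0, the AP-1 matches begin at −194 in F2r, −143 in F5, −217 in Procr and −80 in Tfpi2, and Tfpi2 also holds the NF-kB letters.
F2r: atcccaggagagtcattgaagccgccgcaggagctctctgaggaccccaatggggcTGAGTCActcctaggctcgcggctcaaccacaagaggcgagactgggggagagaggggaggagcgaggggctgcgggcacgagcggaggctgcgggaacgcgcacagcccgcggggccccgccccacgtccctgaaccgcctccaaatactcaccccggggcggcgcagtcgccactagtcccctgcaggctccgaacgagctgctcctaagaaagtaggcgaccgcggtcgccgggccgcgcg
F5: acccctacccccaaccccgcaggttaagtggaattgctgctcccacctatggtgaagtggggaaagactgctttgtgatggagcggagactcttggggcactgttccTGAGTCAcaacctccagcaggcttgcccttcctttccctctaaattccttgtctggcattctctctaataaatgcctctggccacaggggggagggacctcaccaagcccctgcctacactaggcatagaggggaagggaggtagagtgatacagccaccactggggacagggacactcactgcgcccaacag
Procr: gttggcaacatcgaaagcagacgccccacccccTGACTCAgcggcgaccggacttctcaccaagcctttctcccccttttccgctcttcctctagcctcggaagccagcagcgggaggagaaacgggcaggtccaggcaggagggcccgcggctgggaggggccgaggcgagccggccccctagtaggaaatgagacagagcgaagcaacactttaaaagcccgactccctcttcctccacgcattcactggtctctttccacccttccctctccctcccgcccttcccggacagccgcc
Tfpi2: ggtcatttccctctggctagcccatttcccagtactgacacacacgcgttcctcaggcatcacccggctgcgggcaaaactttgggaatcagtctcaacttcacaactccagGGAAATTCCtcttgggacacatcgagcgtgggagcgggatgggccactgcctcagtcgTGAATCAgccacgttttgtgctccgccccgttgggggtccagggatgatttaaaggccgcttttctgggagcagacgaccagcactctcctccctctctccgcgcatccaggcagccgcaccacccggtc
C1r: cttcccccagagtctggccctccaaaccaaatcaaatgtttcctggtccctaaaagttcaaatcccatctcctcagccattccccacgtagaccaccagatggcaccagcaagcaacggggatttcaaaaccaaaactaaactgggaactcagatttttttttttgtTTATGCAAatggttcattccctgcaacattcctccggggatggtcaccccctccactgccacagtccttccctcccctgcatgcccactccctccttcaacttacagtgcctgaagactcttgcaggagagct
C3: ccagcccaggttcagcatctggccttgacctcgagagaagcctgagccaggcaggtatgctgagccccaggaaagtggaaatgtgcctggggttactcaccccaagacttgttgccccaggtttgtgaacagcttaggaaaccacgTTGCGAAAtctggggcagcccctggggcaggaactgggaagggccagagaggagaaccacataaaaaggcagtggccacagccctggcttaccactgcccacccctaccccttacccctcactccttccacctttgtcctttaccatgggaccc

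Other genes of both systems were read from a list for each. Of 30 further complement genes, 24 were read alone and 14 were tested, and the difference was above 0 for 9 of the 14. None passed the adjusted threshold in limma. Colec12, a scavenger receptor of the collectin family, was the only 1 of the 14 at an unadjusted p under 0.05 in limma, beside 1.61% of all genes. It was higher in 5 of 5 total tumours, where 6.45% of all genes moved 1 way in 5 of 5, by a mean of 0.59 (SE 0.206, limma unadjusted p 0.0263, adjusted p 0.73). C1qa, C1qb and C1qc, the chains of the C1q recognition molecule made by macrophages, differed by 0.03, 0.00 and −0.03 (SE 0.476, 0.478 and 0.53).

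Of 30 further coagulation genes, 23 were read alone, and 14 of these lay under the limit, among them prothrombin (F2), factor IX (F9), the fibrinogen chains Fga and Fgb, antithrombin (Serpinc1) and protein C (Proc). The difference was above 0 for 7 of the 9 tested and passed the adjusted threshold in limma for 0. F12, factor XII, which starts the contact pathway, was higher in 4 of 5 total tumours. Its difference over all 5 was 0.37 (SE 0.136, limma unadjusted p 0.0327, adjusted p 0.765), the only 1 of the 9 at an unadjusted p under 0.05, beside 1.61% of all genes. Fgg, the gamma chain of fibrinogen, was read above the limit although the other chains were not. Its signal was 7.61, 7.26, 8.64, 8.97 and 3.71 in biopsies and 6.60, 9.86, 9.18, 9.50 and 6.28 in total tumours, with a difference of 1.04 (SE 0.547, limma adjusted p 0.846). Both samples of 52I4 were the lowest of their group.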

How the data were processed

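Per the labels, RNA from 5 biopsies and 5 total tumours was hybridised to Affymetrix Rat Genome 230 2.0 arrays, 1 sample per array, and normalised by RMA per the submitters' processing notes. The deposited values are log2 signals (2.339 to 14.26) for 31099 probe sets, which the authors made with RMA and which were used without further scaling. After 57 control probe sets were left out, 20826 named 1 gene, 436 several and 9780 none in the platform annotation.

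The dimmest 40% of probe sets by mean signal were left out (limit 5.15), and 18625 were tested. The main test was limma 3.58.1 in R 4.3.3 (lmFit and eBayes, tumour as block), adjusted by Benjamini-Hochberg over all tested probe sets at 0.05. SEs of tested genes come from that fit. A moderated F over the tumour coefficients tested differences between tumours. Means over lists have no test. The fits were tested on simulated data.

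Samples of 1 tumour are paired by the labels, and over all tested probe sets 4 of 5 own pairs correlated above 0.1 in their deviations from the group means. The pair of 50I1 was at −0.21, and 6 of the 20 pairs of different tumours were also above 0.1, the highest at 0.36. Alternatives covered the filter, the block, the variance model, the methods' paired t-test, scaling, probe set choice and each tumour left out. The members and gene lists were chosen with earlier results of these data known. Named with every array's value were genes fixed by role and those with the largest differences, ranges and smallest p values. The number of arrays limits precision.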

Additional observations from a re-analysis of the deposited data

Results flagged for a closer look

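In 62 sets of 5 samples of 1 group, 5 had a sample far from the other 4, and chance flags about 1 in 20 sets. C1s in the biopsy of 37I1 was 7.34, and the nearest biopsy was 10.998. Serping1 in the same biopsy was 7.81, and the nearest was 10.50. C5, under the limit for testing, was 4.27 there, and the nearest was 3.26. Cd59 in the biopsy of 31D3 was 10.82, and the nearest was 10.52. The mean of the coagulation genes in the total tumour of 31D3 was 8.76, and the nearest was 7.81. The first 3 belong to 1 biopsy, the one with the lowest fibroblast and macrophage marker means.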

How the results depend on the processing

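No setting gave a probe set at an adjusted p under 0.05 between total tumour and biopsy. With the pairing left out (no replicate block) the count was also 0 (869 at an unadjusted p under 0.05 in limma). Between tumours, 16 probe sets passed, 26 with no filter, 8 with the dimmest 60% left out, and 0 to 1 with a tumour left out. None of the 24 tested genes was called under any of the 11 settings run for each. Cd55 turned sign with the mean of its probe sets (−0.023). With 1 tumour left out, 10 genes turned sign. Their differences ranged from −0.10 to 1.31 for C1s, −0.34 to 1.08 for C3, −0.13 to 0.59 for C5ar1, −0.38 to 0.39 for Cd55 and −0.18 to 0.23 for Clu. They ranged from −0.24 to 1.19 for Serping1, −0.020 to 0.38 for Vtn, −0.028 to 0.49 for F2r, −0.12 to 0.61 for Procr and −0.41 to 0.75 for Tfpi2. The mean change of the 28 genes ranged from 0.07 to 0.61 with a tumour left out. The cause was not tested. A median over genes turned complement minus coagulation from −0.11 to 0.09. With the 3 shared probe sets added, chosen after the data were seen, it was still −0.11. Genes near or under the limit of 5.15 have little signal over background.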

Other observations

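C4bpa, a chain of the C4b-binding protein, lay under the limit for testing in the mean and was singled out after its values were seen. It read 3.83, 3.97, 3.93, 4.54 and 3.86 in the biopsies of 31D3, 32D1, 37I1, 50I1 and 52I4 and 5.55, 5.01, 6.05, 4.59 and 4.76 in the total tumours. The groups did not overlap, beside 0.584% of all genes, and the mean difference was 1.17. Only 2 of the 10 arrays were above the limit. In the limma fit with no filter the unadjusted p of C4bpa was 0.00505 and its adjusted p 0.549. C4bpb, also under the limit, had a mean difference of 0.05. Between tumours, 3 of the 9 tested further coagulation genes (Fgg, Ggcx and Lman1) and 2 of the 14 tested further complement genes (Colec12 and Itgax) had unadjusted p values under 0.05 in limma, beside 10.1% of all genes. Their limma adjusted p values were 0.363, 0.43, 0.428, 0.27 and 0.463.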
